A study of Mus musculus with 18 samples.

Results

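Loss of a short α-helix from the transcription factor FoxA2 was followed in cells of the gastrulating mouse embryo that carried no detectable FoxA2 fluorescence. The libraries were chosen by genotype and sort gate: the 3 libraries of ΔHx cells and the 3 of WT cells from the Neg gate, 6 of the 18 libraries of the study, with all 24498 genes of the table. ΔHx embryos were homozygous for FoxA2-ΔHx-tagRFP, a knock-in allele without 10 amino acids of the FoxA2 helix. WT embryos were homozygous for FoxA2WT-tagRFP, which has the helix. In both genotypes every copy of FoxA2 was therefore fused through a flexible linker to the red fluorescent protein tagRFP. Both lines were kept on a mixed C57Bl6/J x CD-1 background, superovulated heterozygous females were bred to males of the same genotype, and embryos were taken at E7.5, embryonic day 7.5, without sexing. The part of the embryo outside the embryo proper had been cut away, each sort started from a pool of about 10 homozygous embryos, and each SMART-Seq2 library was made from the RNA of 1000 cells. The study also sorted Mid cells (signal up to the maximum of heterozygous cells) and High cells (signal above it) from both genotypes, with 3 libraries each. Each genotype was bred from its own knock-in mice, so a difference between the lines other than the deletion cannot be told apart from the deletion.

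FoxA2 is a forkhead transcription factor of the definitive endoderm, node and notochord, and it can bind its sites in closed chromatin. The node is a pit of ciliated cells at the tip of the primitive streak; its cells make Nodal, and the notochord that follows makes Shh. Cells without FoxA2 at this stage are mostly epiblast, mesoderm and ectoderm.

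The Neg libraries held 13742922 to 15849628 reads in genes in ΔHx and 12302196 to 15402942 in WT. Between 16808 and 17180 genes had a read in ΔHx Neg libraries, against 16566 to 16888 in WT Neg libraries. Values below are normalised reads, which are read counts divided by a size factor per library, and 1 read was worth 0.906 to 1.23. The ribosomal RNA precursor Rn45s took 27.9% to 30.1% of the reads in ΔHx and 23.7% to 32.1% in WT. Replicates differed more in WT Neg, with a chi-square per degree of freedom of 7.04 to 23.7, than in ΔHx Neg with 4.82 to 6.67.

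Marker lists were compared between Neg and High cells in both genotypes. The 22 cardiac and lateral mesoderm genes summed to 7981 to 8363 in ΔHx Neg and 7995 to 9297 in WT Neg, against means of 1284 in ΔHx High and 1225 in WT High. The 19 node and notochord genes found in the table summed to 5.64% of the High level in ΔHx Neg and to 4.39% in WT Neg. For definitive endoderm and gut the same shares were 11.5% in ΔHx and 9.94% in WT. Epiblast genes summed to 228.5% of the High level in ΔHx Neg and 204.8% in WT Neg, primitive streak and nascent mesoderm genes to 69.6% in ΔHx and 66.7% in WT, and surface ectoderm genes, which include keratins and epithelial adhesion genes, to 22.6% in ΔHx and 20.8% in WT, so the last 2 lists were lower in Neg than in High. None of the node genes was at 0 in all 6 libraries. In bulk libraries, fewer cells of a type and less RNA per cell cannot be told apart.

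Foxa2 transcripts were present at a low level in the Neg gate. Foxa2 (mm10, chr2:148042877-148046969, minus strand, protein coding) had 62.5, 55.1 and 43.4 normalised reads in the ΔHx Neg libraries and 40.6, 20.3 and 23.6 in the WT Neg libraries. All ΔHx values lay above all WT values, the nearest being 43.4 in ΔHx and 40.6 in WT. The difference was 0.95 on the log2(value + 1) scale (SE 0.28) and did not pass the test, with adjusted p = 0.405 by limma. The deletion leaves the rest of the gene in place, so a total per gene does not show the genotype. Foxa3, a related forkhead gene of the endoderm, had 22.3, 49.5 and 26.8 in ΔHx Neg and 16.0, 11.2 and 8.15 in WT Neg. Its libraries did not overlap either, and the log2 difference of 1.37 had adjusted p = 0.0975. Foxa1 was 21.2, 12.1 and 6.19 in ΔHx Neg and 18.5, 2.03 and 2.72 in WT Neg, with overlapping libraries. Summed, the 3 FoxA genes gave 106, 117 and 76.4 in ΔHx Neg and 75.1, 33.5 and 34.4 in WT Neg, where WT replicate 1 was the highest of its group.

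Few genes were called as different between the genotypes in Neg cells. limma was fitted to log2(value + 1) of all 18 libraries with one mean for each genotype and gate, and a gene was called at a Benjamini-Hochberg adjusted p under 0.05 over 14711 tested genes. It called 36 genes, 0.245% of those tested; 20 rose in ΔHx (0.136%) and 16 fell (0.109%). In High cells the same model called 18 genes (0.122%) and in Mid cells 59 (0.401%). Among all tested genes 614 (4.17%) had an unadjusted p under 0.05, and 1874 (12.7%) had libraries that did not overlap. All 36 called genes were among these 1874; over all genes 986 (6.70%) lay above WT in every ΔHx library and 888 (6.04%) below. The median log2 difference of all tested genes was 0.0090, and 52.2% of the differences were positive. The called genes are described as those whose effect in both other gates had the same sign and at least 50% of the size in Neg, and those where it did not, as the plot of the called genes in each gate shows. The number of calls moved with the libraries: 8 to 30 genes rose and 2 to 13 fell when 1 Neg library was left out, with the fewest falls without WT Neg replicate 3, and 9 called genes were kept in every such fit (Nr1h5, Cap1, Alox15, Gm13157, Arsa, Shh, Kif12, Hyou1 and Tmem87a).

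**Figure D1:**
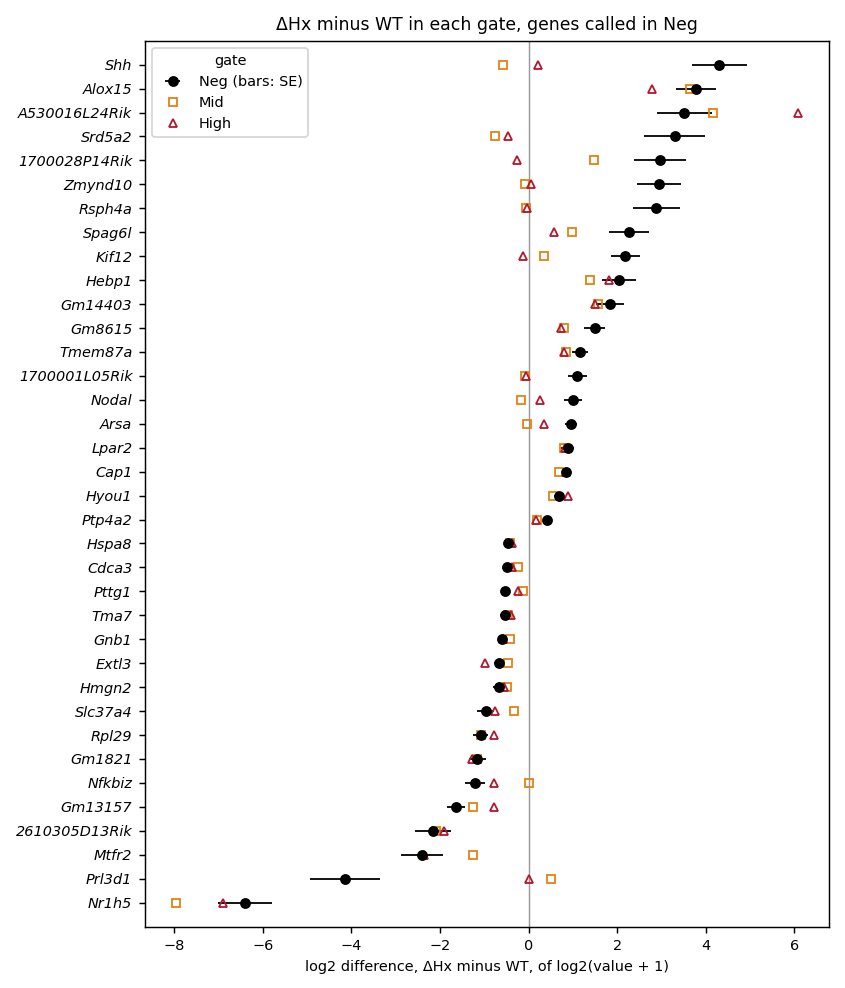
Log2 difference, ΔHx minus WT, of the 36 genes called in Neg, in normalised reads plus 1 on the x axis, with one row per gene. Black circles with SE bars are Neg, red triangles High and orange squares Mid. Shh, at 4.31, is at 0.22 in High and -0.58 in Mid, while Alox15, Cap1 and Nr1h5 lie on the same side in all gates.

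A first set held 9 genes that rose in ΔHx Neg cells, each with a Neg level of at most 30.95% of High in both genotypes. Of these, Shh is in the node and notochord list, Nodal in the Nodal pathway list and Zmynd10, Rsph4a and Spag6l in a motile cilia list made after the values were seen; the other 4 are in none of these lists. Shh, the secreted ligand of notochord and floor plate, had 45.8, 54.1 and 20.6 in the ΔHx Neg libraries and 6.16, 0 and 0 in the WT Neg libraries. Every ΔHx library exceeded every WT library, and 2 WT libraries had no read. Over the group this was 119 reads in ΔHx and 5 in WT, and the log2 difference was 4.31 (SE 0.62, adjusted p = 0.00323). Nodal, the TGF-β family ligand made at the node, had 114, 117 and 152 in ΔHx Neg and 43.1, 84.2 and 66.1 in WT Neg. It rose by 1.01 on the log2 scale (SE 0.20, adjusted p = 0.0392), a ratio of means of 1.98. Kif12, a kinesin motor gene, had 12.3, 12.1 and 9.29 in ΔHx Neg against 1.23, 2.03 and 1.81 in WT Neg, with a log2 difference of 2.19 (SE 0.32, adjusted p = 0.00323). The ΔHx values of Kif12 lay close together and all WT values were at or under 2.03.

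Among the rises were 3 genes of motile cilia. Zmynd10, which helps assemble the dynein arms of cilia, had 15.6, 31.7 and 10.3 in ΔHx Neg and 1.23, 5.07 and 0 in WT Neg (log2 2.94, SE 0.50, adjusted p = 0.0103). Rsph4a, a protein of the radial spoke head, had 13.4, 25.2 and 6.19 in ΔHx Neg and 1.23, 2.03 and 0 in WT Neg (log2 2.88, SE 0.53, adjusted p = 0.0212). Spag6l, of the central apparatus of the axoneme, had 6.70, 3.73 and 2.06 in ΔHx Neg and no read in any WT Neg library. In all 3 genes ΔHx replicate 3 was the lowest of its group and still above the WT libraries. The 12 reads of Spag6l in ΔHx put it at least 1.32-fold higher than a floor of 3 reads in each WT library, and its log2 value of 2.27 (SE 0.46, adjusted p = 0.0401) depends on the added 1. With 45 reads in ΔHx Neg and 3 in WT Neg, Rsph4a was 14.8 times higher (counting interval at 95% of 4.76 to 74.6).

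The start sites of 2 of these ciliary genes, Zmynd10 and Spag6l, held the letters GTTGCC, the short site that RFX factors of ciliated cells bind. Both windows are shown because they belong to called ciliary genes; they run from 250 bases before to 50 after the gene start in RefSeq (GRCm38.p6), 5′ to 3′ on the strand of the gene, with the match in capitals. Zmynd10 is chr9:107547054-107547353, plus strand, with the match on its minus strand, and Spag6l is chr16:16829314-16829613, minus strand, with the match on its own strand.
Zmynd10: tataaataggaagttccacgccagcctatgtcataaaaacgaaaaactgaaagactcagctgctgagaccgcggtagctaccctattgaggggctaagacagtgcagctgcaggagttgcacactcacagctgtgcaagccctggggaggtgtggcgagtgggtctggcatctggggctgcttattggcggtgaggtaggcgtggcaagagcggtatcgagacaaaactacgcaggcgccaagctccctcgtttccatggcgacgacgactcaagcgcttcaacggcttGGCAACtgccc
Spag6l: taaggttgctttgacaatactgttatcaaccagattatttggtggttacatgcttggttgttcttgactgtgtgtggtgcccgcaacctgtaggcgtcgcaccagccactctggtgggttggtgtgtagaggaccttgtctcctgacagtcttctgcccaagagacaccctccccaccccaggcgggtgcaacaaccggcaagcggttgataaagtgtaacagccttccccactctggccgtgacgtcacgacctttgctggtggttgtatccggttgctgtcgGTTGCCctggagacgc
Of the 36 called genes 25 had such a window, and 2 of the 25 (8.0%) held GTTGCC on either strand, against 1765 of 11661 windows of tested genes (15.1%). The forkhead letters TGTTTAC were in 0 of the 25 windows and in 367 of the 11661 (3.15%). Rsph4a was among the called genes without a window, so its start site was not searched. GTTGCC was searched after the values of the genes had been seen.

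The set held 3 further rises. Srd5a2, a steroid 5α-reductase, had 25.7, 8.40 and 6.19 in ΔHx Neg and 0, 0 and 0.906 in WT Neg (log2 3.30, SE 0.68, adjusted p = 0.0465). The uncharacterised gene 1700028P14Rik had 15.6, 8.40 and 2.06 in ΔHx Neg and no read in WT Neg (adjusted p = 0.0328), at least 2.76-fold higher than the floor. ΔHx replicate 1 was the highest library for both. The long noncoding RNA 1700001L05Rik had 72.6, 88.6 and 92.9 in ΔHx Neg and 32.0, 47.7 and 38.0 in WT Neg (log2 1.10, SE 0.22, adjusted p = 0.0346). Its groups did not overlap.

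By the choice of the set all 9 genes had higher levels in High than in Neg, so this is not a result. Mean levels of 1700001L05Rik were higher still in Mid, at 307 in ΔHx and 318 in WT, against 274 and 281 in High. Arsa, Lpar2 and Hebp1, described below, also rose and were lower in Neg than in High. Arsa, for example, was at 55.2% in ΔHx and 36.1% in WT. In ΔHx embryos the Neg level of Shh was 1.32% of the High level, against 0.0755% in WT embryos. The same share was 2.45% in ΔHx against 0.274% in WT for Zmynd10, 1.97% in ΔHx against 0.139% in WT for Rsph4a and 3.25% in ΔHx against 0.456% in WT for Kif12. Nodal in Neg reached 7.79% of its High level in ΔHx and 4.68% in WT, and 1700001L05Rik 30.95% and 13.97%. In High cells none of the 9 passed the threshold between the genotypes; the difference was, for example, 0.22 on the log2 scale for Shh (adjusted p = 0.959) and 0.25 for Nodal (adjusted p = 0.795). The test of the difference between gates did not reach the threshold either. For Shh the effect in Neg exceeded that in High by 4.09 (SE 0.88, unadjusted p = 0.000179, adjusted p = 0.525) and that in Mid by 4.89 (SE 0.88, adjusted p = 0.171). The node and notochord list includes Shh itself and genes of cilia, and was chosen with earlier results of these data known. Of its 19 tested genes 17 had positive differences, against 52.2% of all tested genes. The median log2 difference was 0.52, against 0.0090 over all genes. In 3 of the 19 every ΔHx library lay above every WT library, as in 6.70% of all tested genes. The list summed to 2155, 2089 and 1661 in ΔHx Neg and 1973, 1433 and 1411 in WT Neg, where WT replicate 1 overlapped the ΔHx range. The part of a different share of node cells in these rises was not tested.

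Shh was the 1 called member of the node list. Noto, a homeobox gene of the node, had 30.1, 30.8 and 7.23 in ΔHx Neg and 16.0, 3.04 and 0.906 in WT Neg (adjusted p = 0.452). Foxj1, the main activator of motile cilia genes, had 107, 84.0 and 40.3 in ΔHx Neg and 71.4, 8.11 and 21.7 in WT Neg (adjusted p = 0.459). In both, WT replicate 1 exceeded ΔHx replicate 3. The list of 50 motile cilia genes was made after the values were seen, so its counts are description only. It had 46 tested members, of which 3 rose (0.136% of all tested genes did) and 0 fell. Of the 46, 35 had positive differences (52.2% of all tested genes did), with a median of 0.51. The list summed to 3245 to 3755 in ΔHx Neg and 3205 to 3768 in WT Neg, which overlap. Mns1, a cilium and flagellum gene, lay on the other side, with 672, 637 and 551 in ΔHx Neg and 839, 822 and 870 in WT Neg, without passing the test (adjusted p = 0.213). The median of the node list was 0.31 to 0.65 when 1 Neg library was left out.

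Of the 36 called genes 31 met the filter on low values through Neg libraries. The other 5, Kif12, Rsph4a, Srd5a2, 1700028P14Rik and Spag6l, had 10 normalised reads or more in 2, 2, 1, 1 and 0 of the 6 Neg libraries, and met it through the High and Mid gates. Their log2 values depend on the added 1. With a pseudocount of 5 the log2 difference was 1.28 for Kif12 (adjusted p = 0.111), 1.61 for Rsph4a (0.338), 1.65 for Srd5a2 (0.781), 1.32 for 1700028P14Rik (0.778) and 0.84 for Spag6l (1). The call of 1700001L05Rik ended too (0.0545). Those of Shh, Nodal and Zmynd10 held, with Shh at 2.70 and Zmynd10 at 1.74. Quantile normalisation ended the calls of Nodal (0.0503), Spag6l (0.0592) and Srd5a2 (0.0868).

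The calls of the 9 genes also leaned on the spread shared by all gates. With the 6 Neg libraries alone the adjusted p was 0.0711 for Shh, 0.307 for Nodal, 0.240 for Zmynd10 and 0.185 for Kif12, and all 9 calls ended. All 9 calls also ended in edgeR's quasi-likelihood test on the recovered reads, where Shh had adjusted p = 0.124 and Nodal 0.111; those of Kif12, Spag6l and Srd5a2 ended in DESeq2 as well (adjusted p = 0.0644, 0.120 and 0.0618). Shh and Kif12 kept their calls whichever Neg library was left out, with adjusted p up to 0.0354 and 0.0335. Zmynd10 and Rsph4a lost theirs without ΔHx Neg replicate 1 or 2 or WT Neg replicate 3 (up to 0.111 and 0.205), and Nodal without any Neg library but WT Neg replicate 2 (up to 0.237). The calls of 1700001L05Rik, 1700028P14Rik, Spag6l and Srd5a2 were lost in at least 5 of 6 such fits, with adjusted p up to 0.205, 0.255, 0.283 and 0.354.

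**Figure D2:**
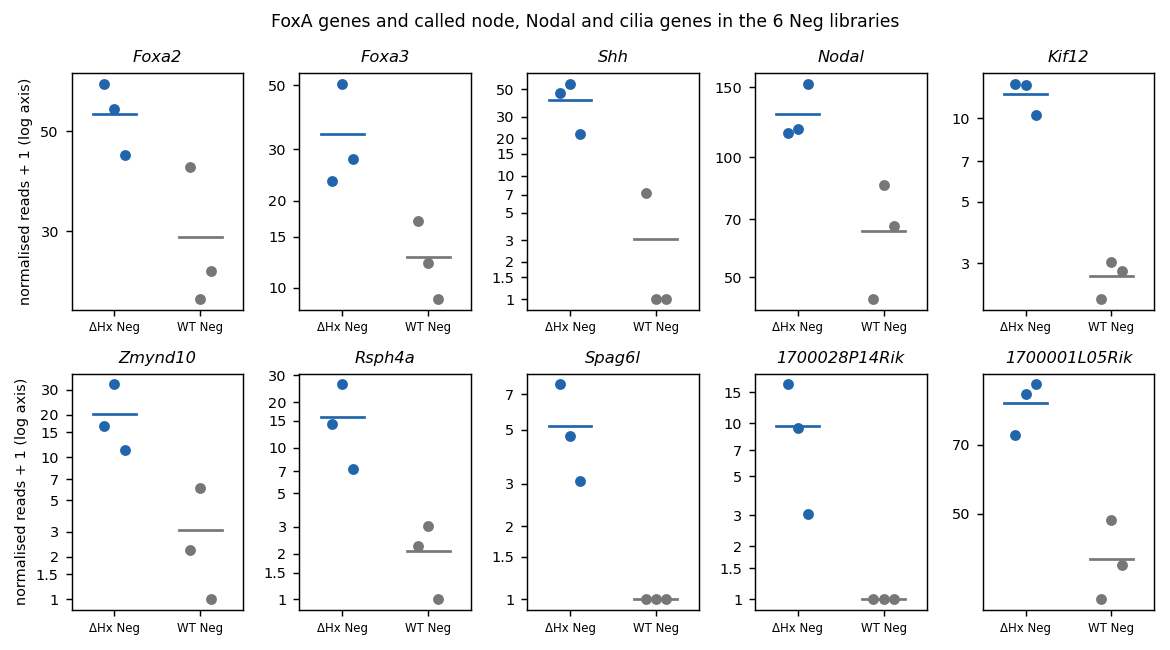
Normalised reads plus 1 (log axis, its range set by panel) in the 3 ΔHx Neg and 3 WT Neg libraries. The panels are Foxa2, Foxa3 and the called genes Shh, Nodal, Kif12, Zmynd10, Rsph4a, Spag6l, 1700028P14Rik and 1700001L05Rik. Kif12, 1700028P14Rik and 1700001L05Rik are in none of the node, Nodal and cilia lists. Points are libraries and lines are means, and 1 on the axis is no read. ΔHx points lie above WT points in every panel, which the choice of panels sets for the called genes, as all 36 do not overlap. Foxa1, Noto and Foxj1, whose libraries overlap, are not shown.

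A second set was chosen by its effects in the other gates. Of the 36 genes, 18 had an effect of the same sign in both High and Mid of at least 50% of that in Neg, 8 of them higher and 10 lower in ΔHx. The rule sets no upper limit, and sizes differed: A530016L24Rik was 3.52 in Neg, 6.09 in High and 4.16 in Mid, and Mtfr2 was -2.41, -2.37 and -1.25 in the same order. High and Mid cells come from the same kind of pools and may share embryos with Neg, so these are not separate populations of animals. Of the 36 Neg calls 9 were also among the 18 of High and 13 among the 59 of Mid, in the same direction, and 7 were called in all gates.

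Nr1h5, a nuclear receptor gene related to the bile acid receptor, fell furthest. It had 1.12, 1.87 and 4.13 in ΔHx Neg and 525, 140 and 256 in WT Neg. ΔHx Neg held 7 reads in all and WT Neg 847, and the log2 difference was -6.41 (SE 0.61, adjusted p = 3.56e-05). No read of Nr1h5 was found in any ΔHx High or ΔHx Mid library, whereas WT High had 75.5 to 243 and WT Mid 151 to 653. Alox15, a lipoxygenase that oxidises polyunsaturated fatty acids, had 583, 622 and 405 in ΔHx Neg and 62.8, 35.5 and 23.6 in WT Neg. It rose by 3.78 (SE 0.46, adjusted p = 0.00051), a ratio of means of 13.2, and also in High (2.78) and Mid (3.65). A530016L24Rik, an uncharacterised protein-coding gene, had 31.3, 32.7 and 52.6 in ΔHx Neg and 1.23, 8.11 and 0.906 in WT Neg (log2 3.52, SE 0.62, adjusted p = 0.0139). It had 51.6 to 78.9 in ΔHx High and 8.37 to 28.5 in ΔHx Mid, and no read in WT High or WT Mid. Its call held only without WT Neg replicate 2 among the fits without a Neg library (adjusted p up to 0.139) and ended in edgeR, while those of Nr1h5 and Alox15 held under every alternative.

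A further 6 genes of this set rose in ΔHx Neg. Cap1, which turns over actin filaments, had 2161, 1876 and 2076 in ΔHx Neg and 1014, 1098 and 1276 in WT Neg (log2 0.85, SE 0.10, adjusted p = 0.00051). Its log2 difference was 0.85 in High and 0.68 in Mid. Hyou1, a chaperone of the endoplasmic reticulum, had 2448, 2574 and 2385 in ΔHx Neg and 1492, 1493 and 1629 in WT Neg (log2 0.68, SE 0.10, adjusted p = 0.0037). It was the 1 called member of the 24 genes of the unfolded protein and integrated stress response, whose median difference was -0.02 (0.02 without WT Neg replicate 3). Tmem87a, a Golgi membrane protein, had 557, 533 and 645 in ΔHx Neg against 320, 260 and 207 in WT Neg (log2 1.16, adjusted p = 0.00383). Lpar2, a receptor for lysophosphatidic acid, had 453, 412 and 470 in ΔHx Neg against 241, 243 and 237 in WT Neg (log2 0.88, adjusted p = 0.0126). Hebp1, which binds heme, had 40.2, 28.0 and 37.2 in ΔHx Neg against 8.62, 8.11 and 6.34 in WT Neg (log2 2.05, adjusted p = 0.0215), and Gm14403 had 899, 624 and 734 in ΔHx Neg against 252, 190 and 189 in WT Neg (log2 1.83, adjusted p = 0.0126). In each of these 6 genes every ΔHx Neg library exceeded every WT Neg library. Cap1, Hyou1 and Tmem87a kept their calls whichever Neg library was left out. Gm14403 lost its call without ΔHx Neg replicate 1 or WT Neg replicate 2 or 3 (adjusted p up to 0.114), and Lpar2 and Hebp1 without any Neg library but WT Neg replicate 1 (up to 0.0996 and 0.154).

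The falls of this set included single genes of varied function. Rpl29, a protein of the large ribosomal subunit, had 1077, 996 and 1150 in ΔHx Neg and 1788, 2393 and 2757 in WT Neg (log2 -1.09, SE 0.17, adjusted p = 0.00396). Hspa8, the constitutive Hsp70 chaperone, had 20117, 20441 and 20470 in ΔHx Neg and 26537, 28992 and 28856 in WT Neg (log2 -0.47, SE 0.08, adjusted p = 0.0102). Both were low in every ΔHx library. Hmgn2, a nucleosome-binding protein, had 3090, 2625 and 2438 in ΔHx Neg and 3746, 4077 and 5146 in WT Neg (adjusted p = 0.0446), and Tma7, named for its association with the translation machinery, 749, 756 and 694 in ΔHx Neg against 1017, 1061 and 1105 in WT Neg (adjusted p = 0.0339). The processed pseudogene Gm1821 had 1201, 1302 and 1314 in ΔHx Neg and 2280, 2847 and 3513 in WT Neg (adjusted p = 0.0103). Reads that mapped to more than one place were not counted and made up 40.7% to 41.3% of all that was counted in these libraries, so genes with near-identical copies, such as Rpl29, Hspa8, Hmgn2, Tma7, Gm1821, Gm8615 and the zinc finger genes, are uncertain. The call of Rpl29 ended without WT Neg replicate 3 (adjusted p = 0.0576), those of Hspa8 and Gm1821 without ΔHx Neg replicate 1 or 2 or WT Neg replicate 2 or 3 (up to 0.0986 and 0.118), that of Hmgn2 without any Neg library but WT Neg replicate 1 (up to 0.389) and that of Tma7 without any (up to 0.230). With quantile normalisation the log2 difference of Hspa8 was -0.24 (adjusted p = 0.611), and the call of Tma7 ended as well (0.0868).

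Another 4 genes of the set fell. Gnb1, a β subunit of heterotrimeric G proteins, had 3219, 2958 and 3526 in ΔHx Neg and 4403, 4860 and 5402 in WT Neg (log2 -0.59, adjusted p = 0.015). Extl3, a glycosyltransferase of heparan sulfate synthesis, had 531, 470 and 446 in ΔHx Neg against 737, 836 and 714 in WT Neg (log2 -0.66, adjusted p = 0.0178), and its log2 difference in High was -0.98. Mtfr2, a regulator of mitochondrial fission, had 23.4, 43.9 and 22.7 in ΔHx Neg against 148, 158 and 164 in WT Neg (log2 -2.41, SE 0.47, adjusted p = 0.030). In each of the 3 every ΔHx Neg library lay below every WT Neg library. The zinc finger gene 2610305D13Rik (Zfp979) had 126, 85.8 and 137 in ΔHx Neg and 445, 623 and 488 in WT Neg (log2 -2.16, SE 0.40, adjusted p = 0.0199). Without a Neg library the adjusted p reached 0.155 for Gnb1 and 0.181 for 2610305D13Rik (calls lost without ΔHx Neg replicate 1 or 2 or WT Neg replicate 2 or 3), 0.131 for Extl3 (ΔHx Neg replicate 2 or 3 or WT Neg replicate 2 or 3) and 0.176 for Mtfr2 (any of the 6).

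**Figure D3:**
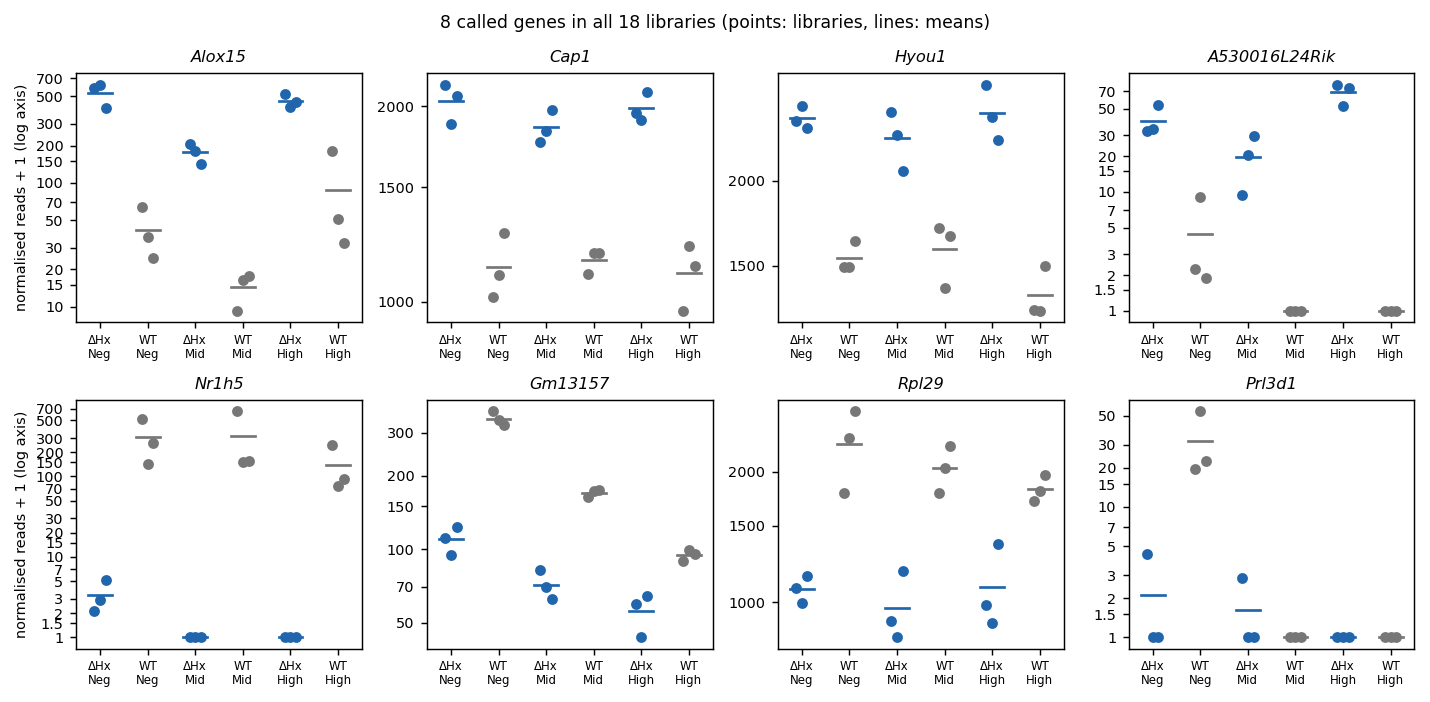
Normalised reads plus 1 (log axis, its range set by panel) of 8 called genes in all 18 libraries, by gate and genotype; points are libraries and lines are means. Alox15, Cap1, Hyou1 and A530016L24Rik are higher, and Nr1h5, Gm13157 and Rpl29 lower, in the ΔHx than in the WT group of each gate, while Prl3d1 has reads in WT Neg and at most 3.35 in any ΔHx library.

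The remaining called genes had smaller effects in at least 1 of the other gates. Gm13157 (Zfp984), a zinc finger gene, had 111, 93.3 and 122 in ΔHx Neg and 367, 336 and 321 in WT Neg (log2 -1.65, SE 0.20, adjusted p = 0.00051), with -0.78 in High and -1.26 in Mid. It lies 111461 bases from 2610305D13Rik on chromosome 4, and both fell. Arsa, the lysosomal arylsulfatase A, had 307, 346 and 292 in ΔHx Neg and 164, 166 and 156 in WT Neg (log2 0.95, SE 0.13, adjusted p = 0.00276). In Mid its difference was -0.03, and the test between Neg and Mid gave 0.98 (SE 0.19, unadjusted p = 5.54e-05, adjusted p = 0.173). Ptp4a2, a protein tyrosine phosphatase, had 4943, 4801 and 5295 in ΔHx Neg against 4106, 3719 and 3495 in WT Neg (log2 0.41, adjusted p = 0.0466). The processed pseudogene Gm8615 had 284, 291 and 237 in ΔHx Neg against 65.3, 98.4 and 133 in WT Neg (ratio of means 2.74, adjusted p = 0.00557). Gm13157 and Arsa kept their calls whichever Neg library was left out, Gm8615 lost its call without ΔHx Neg replicate 2 (adjusted p = 0.0511), and Ptp4a2 without any but WT Neg replicate 1 (up to 0.384) and with quantile normalisation (0.254).

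Among the falls were regulators of mitosis. Cdca3, which promotes entry into mitosis, had 963, 1017 and 922 in ΔHx Neg and 1303, 1398 and 1390 in WT Neg (log2 -0.50, SE 0.08, adjusted p = 0.0101). Pttg1, the securin that holds separase back until anaphase, had 797, 771 and 781 in ΔHx Neg against 1060, 1123 and 1213 in WT Neg (log2 -0.53, SE 0.09, adjusted p = 0.0102). The groups were tight and did not overlap. A separate list of 26 mitosis genes, which includes neither, had no call, where 0.245% of all tested genes were called. Its median difference was -0.01 (0.04 without WT Neg replicate 3). Nfkbiz, a nuclear IκB protein, had 100, 96.1 and 142 in ΔHx Neg and 270, 225 and 280 in WT Neg (log2 -1.20, adjusted p = 0.0242). Slc37a4, the glucose-6-phosphate transporter of the endoplasmic reticulum, had 107, 77.4 and 97.0 in ΔHx Neg against 175, 181 and 194 in WT Neg (log2 -0.97, adjusted p = 0.0269). It lies 4483 bases from Hyou1 on chromosome 9, which rose. The call of Cdca3 ended without ΔHx Neg replicate 1 or 3 or WT Neg replicate 2 or 3 (adjusted p up to 0.0909), that of Pttg1 without ΔHx Neg replicate 1 or 2 or WT Neg replicate 3 (up to 0.118), that of Nfkbiz without any but ΔHx Neg replicate 3 (up to 0.205) and that of Slc37a4 without any Neg library (up to 0.220).

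Prl3d1, placental lactogen I of trophoblast giant cells, had 3.35, 0 and 0 in ΔHx Neg and 18.5, 53.7 and 21.7 in WT Neg. The 3 reads in ΔHx and 92 in WT put the ratio of WT over ΔHx at 31.0 (counting interval at 95% of 10.3 to 153), and the adjusted p was 0.0274. The other trophoblast and extraembryonic ectoderm genes did not pass the test, with 5 positive and 13 negative differences among 18 tested and a median of -0.13. Elf5, a transcription factor of trophoblast stem cells, had 14.5, 40.1 and 47.5 in ΔHx Neg and 41.9, 71.0 and 79.7 in WT Neg, and Esrrb, an orphan nuclear receptor of the same cells, 14.5, 52.3 and 51.6 in ΔHx Neg against 46.8, 73.0 and 68.8 in WT Neg. The list summed to 7037 to 7249 in ΔHx Neg and to 6386 to 7956 in WT Neg, which overlap. The part of trophoblast cells left on the embryos was not tested. Prl3d1 met the filter on low values through the 3 WT Neg libraries alone, so among tested genes it had to be high there. Its call held in 1 of 6 fits without a Neg library (adjusted p up to 0.258), and not in edgeR (adjusted p = 0.330). It also ended when 0.5 was added in place of 1 (adjusted p = 0.118).

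By position, 33 of the 36 called genes were protein coding, 2 were transcribed processed pseudogenes and 1 was a long noncoding RNA, in the GENCODE annotation of mm10. Chromosome 4 held 7 of the 36 (19.4%, against 6.43% of tested genes) and chromosome 9 held 6 (16.7%, against 5.65%). Chromosome 2, which carries Foxa2, held Tmem87a and Gm14403 (5.56%, against 7.97% of tested genes), at 27.7 and 29.5 Mb from it. No called gene was on the X chromosome, which held 3.71% of tested genes. Chromosomes 1, 7 and 18 held none either, with 5.6%, 7.69% and 2.56% of tested genes.

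No mesoderm gene of the lists was called, where 0.245% of all tested genes were, a share at which lists of this size would hold few or none. None of the 18 tested genes of the primitive streak and nascent mesoderm, 17 of paraxial, 22 of cardiac and lateral and 17 of extraembryonic mesoderm was called, and their median differences were 0.09, -0.09, -0.11 and -0.10, against 0.0090 over all genes. The paraxial and cardiac medians turned to 0.04 without ΔHx Neg replicate 3 and to 0.01 without WT Neg replicate 3. Sp5, a Wnt target of the streak, had 1072, 1070 and 757 in ΔHx Neg and 978, 711 and 768 in WT Neg. Bmp4, the growth factor of posterior mesoderm, had 443, 443 and 441 in ΔHx Neg against 489, 541 and 521 in WT Neg, below in every ΔHx library but with adjusted p = 1. Cyp26a1, which degrades retinoic acid, had 977, 1057 and 1053 in ΔHx Neg against 611, 810 and 678 in WT Neg (log2 0.56, adjusted p = 0.936). The ΔHx libraries of Cyp26a1 were all above those of WT, as were 6.70% of all tested genes.

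The epiblast, anterior and neural ectoderm and Hox lists, of 16, 17 and 22 tested genes, had 0 calls, against 0.245% of all tested genes. The epiblast list had 11 of 16 positive differences (median 0.14), and Nanog, a pluripotency factor, had 221, 222 and 294 in ΔHx Neg and 203, 202 and 159 in WT Neg. Fgf5, a growth factor of the epiblast, ran from 346 to 563 in ΔHx Neg and from 139 to 522 in WT Neg, so the groups overlapped. Of 22 tested Hox genes 8 had positive and 14 negative differences (median -0.12). Embryonic globin genes varied by library: Hba-x had 70.3, 36.4 and 64.0 in ΔHx Neg and 6.16, 31.4 and 8.15 in WT Neg (adjusted p = 0.816), and Hbb-bh1 had 761, 556 and 870 in ΔHx Neg against 111, 951 and 125 in WT Neg. WT replicate 2 was the high WT library for both.

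Of the pathway lists, the Nodal pathway held 1 call in 21 tested genes, Nodal itself, and the Hedgehog pathway 1 in 19, Shh. Of all tested genes 0.245% were called. Hhip, a Hedgehog-binding protein and pathway target, had 54.7, 40.1 and 44.4 in ΔHx Neg and 19.7, 30.4 and 30.8 in WT Neg, without overlap (adjusted p = 1). Spred1, an inhibitor of the Ras and MAP kinase signal below Fgf receptors, had 557, 668 and 590 in ΔHx Neg against 1280, 975 and 930 in WT Neg (log2 -0.80, adjusted p = 0.148). The Wnt, Fgf, Bmp, Notch and retinoic acid lists had no called member, and medians of -0.10, 0.08, 0.00, 0.02 and -0.06. At the share of 0.245%, lists of this size would hold few or no calls. Without ΔHx Neg replicate 3 the Wnt median was 0.02, without ΔHx Neg replicate 2 the Bmp and retinoic acid medians were 0.02 and 0.03, and without WT Neg replicate 3 the Notch median was -0.02. The summed visceral endoderm list was 9960, 13927 and 13930 in ΔHx Neg and 11021, 11931 and 11948 in WT Neg, with ΔHx replicate 1 the lowest of all.

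**Figure D4:**
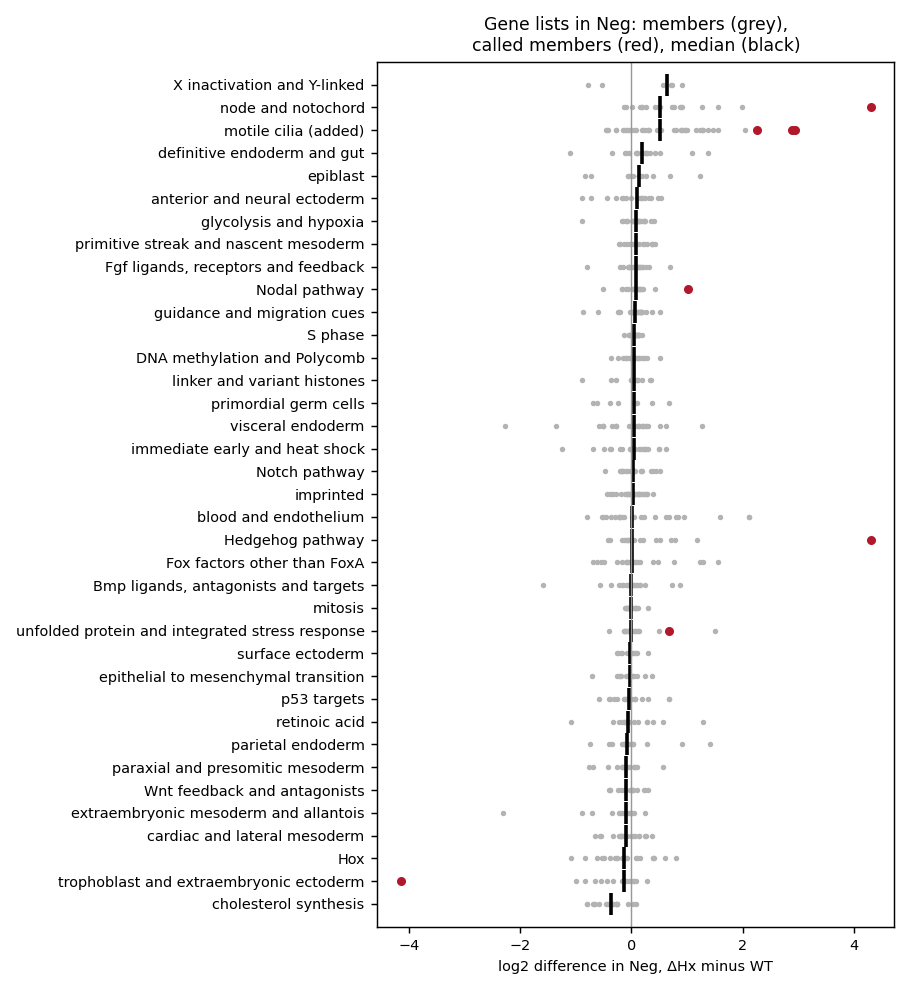
Log2 difference, ΔHx minus WT, in Neg for each tested member of the lists with at least 4 tested genes. Grey points are members, red points called members and black bars medians. The medians lie near 0 but for the sex-linked (0.64), node (0.52), motile cilia (0.51) and cholesterol (-0.36) lists. The motile cilia list was made after the values were seen.

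Among lists of at least 4 tested genes, the sex-linked and cholesterol lists had medians away from 0 without a called member. The embryos were pooled without regard to sex. Eif2s3y, a Y-linked translation factor gene, had 516, 682 and 468 in ΔHx Neg and 296, 221 and 377 in WT Neg (log2 0.91, adjusted p = 0.349). Xist, the RNA of the inactive X chromosome, had 1105, 1074 and 2062 in ΔHx Neg against 2956, 2884 and 1459 in WT Neg (log2 -0.78, adjusted p = 1). Of the Y-linked genes, Eif2s3y, Ddx3y and Uty had every ΔHx library above every WT library, as did 6.70% of all tested genes. Kdm5d overlapped. Xist overlapped too, with ΔHx replicate 3 above WT replicate 3. The part of the sex makeup of the pools in the called genes was not tested. Nnt, which C57BL/6J mice carry with a deletion, had 707, 581 and 690 in ΔHx Neg and 621, 688 and 725 in WT Neg, which overlap.

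Of 24 cholesterol synthesis genes 22 had negative differences (median -0.36). Their summed level was 13362, 12678 and 14344 in ΔHx Neg and 13135, 14723 and 28517 in WT Neg. WT replicate 3 alone stood apart, and without it the median was -0.04. Pmvk, a kinase of the mevalonate pathway, had 291, 270 and 341 in ΔHx Neg and 321, 496 and 563 in WT Neg (adjusted p = 0.669).

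**Figure D5:**
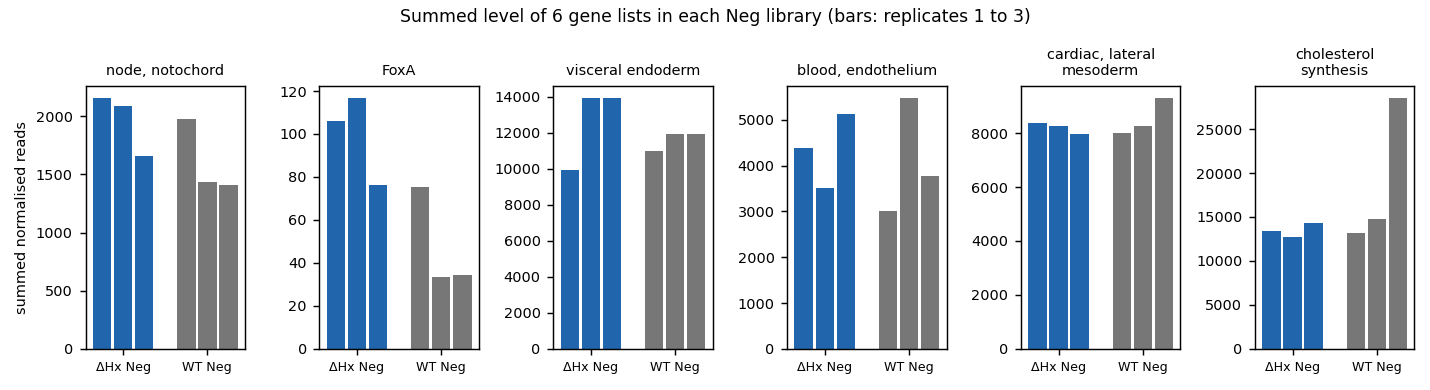
Summed normalised reads of 6 gene lists in each Neg library, with bars for replicates 1 to 3 of ΔHx Neg and then of WT Neg, from 0 on each axis. The FoxA sums do not overlap between genotypes, the nearest being 76.4 in ΔHx replicate 3 and 75.1 in WT replicate 1. Nor do the sums of 4 lists not drawn: definitive endoderm and gut, S phase, DNA methylation and Polycomb, and primordial germ cells, the last lower in ΔHx. Of the 38 lists only these and FoxA had sums without overlap, and no test was run on the sums. Among all tested genes 12.7% had libraries that did not overlap. The cholesterol sum of WT replicate 3 is 28517, above the other libraries.

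Differences between gates were tested over all genes. The effect in Neg minus that in High passed the threshold for 0 genes in limma; 463 (3.15%) had an unadjusted p under 0.05, edgeR called 0 and DESeq2 6. The effect in Neg minus that in Mid passed for 1 gene, Slc6a2 (0.00680% of those tested), with 636 (4.32%) at an unadjusted p under 0.05. Slc6a2 met the filter on low values through the WT Mid libraries alone. Of the 36 Neg genes, 18 had an unadjusted p under 0.05 in either test. The calls in Neg are therefore not shown to be particular to that gate.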

How the data were processed

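RNA of sorted cells was read from 1 end for 75 bases with SMART-Seq2, which keeps no strand, per the labels' protocols; antisense and overlapping genes cannot be told apart. The values deposited by the authors are signal: counts of reads per gene after division by each library's size factor. Per the submitters' processing notes the tools were HTSeq 0.6.1, STAR 2.5.2a, DESeq2 and DESeq with the mm10 build; no source used here gives the annotation. The 5 counter rows were left out. All 440964 values tested for it were whole reads within 1e-06. Genes with at least 10 in at least 3 of 18 libraries, 14711 in all, were tested with limma 3.58.1 (R 4.3.3) on log2(value + 1), with a trend and 6 group means. Tests were two-sided with Benjamini-Hochberg adjustment, and folds understate changes of low genes. edgeR 4.0.16 and DESeq2 1.42.0 on the recovered reads, other pseudocounts, filters and scalings, the Neg libraries alone, a replicate block, weights and each library left out were alternatives. The steps were tested on simulated data with the same dispersion for all genes. Changes were planted only in genes with a WT Neg mean above 20. Rises of genes lower than this in WT Neg, such as Shh, were not covered. Named genes were all called genes, Foxa2, Nnt, sex-linked genes and up to 3 members of each list with the smallest p and a mean of at least 20; Foxa1, Mns1 and Rn45s were added. Members and the 38 lists were chosen with earlier results of these data known; 13 mitochondrially encoded genes were not in the table. Lists have counts and medians only. Labels call the libraries biological replicates; whether they came from separate days or litters is not given, so p-values measure the spread between these samples. Libraries with the same number were not paired. A lone comparison of 3 libraries with 3 cannot give an exact two-sided p below 0.1.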

Additional observations from a re-analysis of the deposited data

Results flagged for a closer look

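Slc6a2, the noradrenaline transporter gene, differed between the Neg and Mid gates in its genotype effect, by the test of the difference itself. It had 2.23, 3.73 and 3.10 in ΔHx Neg and 2.46, 4.06 and 0 in WT Neg, which overlap. In Mid it had 1.86, 0 and 1.14 in ΔHx and 482, 165 and 160 in WT. No library outside WT Mid was above 4.06. Slc6a2 met the filter on low values through the 3 WT Mid libraries alone, so among tested genes it had to be high there. The effect in Neg minus that in Mid was 7.618 on the log2(value + 1) scale (SE 1.07, limma adjusted p = 0.0133). The Neg effect was 0.61 (SE 0.76, adjusted p = 1) and the Mid effect -7.00 (SE 0.76, adjusted p = 0.000131).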

How the results depend on the processing

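Genes higher in ΔHx numbered 20 in the reported fit, 13 with a pseudocount of 5, 53 with array weights, 9 in edgeR and 8 to 30 with 1 Neg library left out (8 each without ΔHx Neg replicate 1, ΔHx Neg replicate 2 or WT Neg replicate 3). Genes lower in ΔHx numbered 16, against 38 with array weights and 2 to 13 with 1 Neg library left out (15 without ΔHx High replicate 3). DESeq2 gave 30 and 23. The replicate block, which groups equally numbered libraries, gave 22 and 14 over all libraries, and 4 and 9 with the 6 Neg libraries alone. Deviations of equally numbered libraries correlated at 0.0155, -0.0630 and 0.00983, and of the ΔHx libraries only replicate 1 correlated best with its own number. Neg libraries correlated with the equally numbered High or Mid library of their genotype at 0.0156 to 0.160, positive in 12 of 12 cases; whether gates shared embryos or days was not tested. The call was kept under every alternative by 5 genes, Nr1h5, Cap1, Alox15, Gm13157 and Hyou1. Outside the first set, limma on the 6 Neg libraries alone ended the calls of Hebp1 (adjusted p = 0.0805), A530016L24Rik (0.0621), Hmgn2 (0.0619), Slc37a4 (0.0884) and Prl3d1 (0.0506). Besides those of A530016L24Rik and Prl3d1, edgeR ended the calls of Hmgn2 (adjusted p = 0.0719) and Ptp4a2 (0.111).

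Foxa2 passed the threshold only with array weights (log2 1.03, adjusted p = 0.0176). The effect in Neg minus that in High was called for 0 genes, for 6 in DESeq2 and for 0 to 2 with 1 Neg library left out. Neg minus Mid was called for 1 gene, for 0 with a pseudocount of 0.5, a filter at 50 or edgeR, for 2 with a pseudocount of 5, for 6 with array weights, for 19 in DESeq2 and for 0 to 5 with 1 Neg library left out. Neither could be fitted to the 6 Neg libraries alone, which hold no other gate.

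Small uncalled differences changed sign with a library left out. Nnt ran from -0.105 to 0.045 (0.00656 without WT Neg replicate 3), Col3a1 from -1.65 to 0.075, Grhl3 from -0.452 to 0.0842 and Krt8 from -0.00128 to 0.137. The cause was not tested. Depth limits the low genes: Spag6l, 1700028P14Rik, Kif12, Srd5a2, Rsph4a, Zmynd10 and Prl3d1 rest on 12 to 92 reads in the higher group.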
